A study of Homo sapiens with 4 samples.

Results

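The cytosolic chaperonin TRiC, also called CCT, is built from 8 subunits, each the product of its own gene: TCP1, CCT2, CCT3, CCT4, CCT5, CCT6A, CCT7 and CCT8. These genes were found by symbol after the Ensembl identifiers of the count tables were mapped to names, and all 8 were present among the 62700 genes listed and among the 18139 genes that passed the filter on low counts. Membership follows from the symbols and not from a threshold on expression, although the complex was picked for description with earlier results of these data known. TRiC is a double ring in which every ring holds each subunit at a fixed place. It encloses unfolded proteins and folds them with energy from ATP. Actin, the tubulins and many proteins made of WD repeats depend on it. Prefoldin delivers unfolded chains to it, and phosducin-like proteins act as its cofactors. Because the ring needs every subunit in equal number, the balance among the subunit transcripts was examined together with their response.

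The study transfected HEK293T, a human embryonic kidney cell line, with a form of RPB1, the catalytic core subunit of the polymerase that transcribes protein-coding genes, which resists the toxin α-amanitin. RPB1 carried either a wild-type C-terminal domain (WT) or one in which the fourth residue of each repeat, a threonine, was replaced by alanine (T4A). Cells of both groups then received α-amanitin at 2.5 µg/ml, which blocks their own polymerase, from 1 day after transfection and for 48 hours. Poly(A) RNA was sequenced from 2 libraries per group. Expression of the constructs was transient, and every difference below is between the 2 constructs under toxin. The libraries held 23465029 and 19257217 counts (T4A) and 33063535 and 24695291 counts (WT). POLR2A, which encodes RPB1, stood at 5428 ± 70.5 counts per 1000000 counts of the library (CPM) in T4A and 3268 ± 713 CPM in WT (SD, n = 2). Its counts add the construct to the cells' own gene, so they check neither label. POLR2A was called higher in T4A (log2 fold change 0.73, edgeR adjusted p = 7.2e-07). The groups thus differed in the amount of this transcript as well as in the form of the C-terminal domain. The part of that amount in the differences below was not tested. Of the markers of the line, VIM, KRT8, KRT18, PAX2 and NEFM were detected in every library, while LHX1 had 0 to 2 counts, and VIM and KRT8 were higher in T4A (log2 fold changes 0.20 and 0.56). PTPRC (leukocytes) had 0 to 2 counts, CD3E (T cells) 0 to 4, HBB (erythroid cells) 0 and ALB (hepatocytes) 10 to 36. Mitochondrially encoded genes took 18.8% to 19.0% of the counts in T4A and 20.2% to 21.4% in WT, and their part in the differences below was not tested.

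The TRiC transcripts changed little between T4A and WT. CCT7 rose by 13.3%, CCT4 by 9.13% and CCT3 by 8.59%, no subunit fell, and the other 5 did not pass the test. Across all genes tested, 10.7% were called higher and 13% lower in T4A, at an adjusted p under 0.05 in edgeR's quasi-likelihood test. The median log2 fold change of the 8 subunits was 0.067, beside −0.0066 over all genes, and their log2 fold changes ran from −0.0245 to 0.18. The middle span of all genes, from the lower to the upper quartile, was −0.33 to 0.29, so every subunit lay inside it. The subunit median moved with the processing, to −0.011 with library totals, 0.15 with upper quartile scaling, 0.0398 without a filter on low counts and 0.0195 with the length trend of all genes removed. With 3492 to 34957 counts per subunit and library, the 95% intervals of the log2 fold changes were ±0.066 to ±0.10 wide. Values are shares of a library, and in bulk RNA fewer cells expressing a gene and less RNA per cell cannot be told apart.

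CCT7, which encodes the η subunit (ENSG00000135624.17, chromosome 2, 73234308 to 73253005, GRCh38), was the highest in level and changed the most. Its level was 1189 and 1162 CPM in T4A and 1042 and 1034 CPM in WT. Both T4A libraries lay above both WT libraries. The log2 fold change was 0.18 ± 0.032 (SE), with a 95% interval of 0.11 to 0.25 and an adjusted p of 0.000256 in edgeR. This log2 fold change lay above that of 66.7% of all genes tested, a share that includes genes with negative values.

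CCT3 (γ subunit, ENSG00000163468.15, chromosome 1, 156308968 to 156338292) was measured at 692 and 660 CPM in T4A and at 631 and 614 CPM in WT. The groups did not overlap, and the log2 fold change was 0.12 ± 0.037 (edgeR adjusted p = 0.0233). CCT4 (δ subunit, ENSG00000115484.15, chromosome 2, 61868085 to 61888671) is one of the subunits that can form rings on its own. It stood at 307 and 294 CPM in T4A and at 281 and 270.4 CPM in WT, again without overlap, and its log2 fold change was 0.13 ± 0.044 (edgeR adjusted p = 0.0428). Both calls held without T4A replicate 2 (log2 fold changes 0.15 for CCT3 and 0.15 for CCT4) and without WT replicate 1 (0.15 and 0.16). Leaving out T4A replicate 1 or WT replicate 2 ended them, with log2 fold changes still above 0. These were 0.082 and 0.093 without T4A replicate 1, and 0.094 and 0.0945 without WT replicate 2. Scaling by library totals ended both calls as well (adjusted p = 0.466 and 0.479), as did testing without a filter on low counts (0.0942 and 0.190).

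CCT8 (θ subunit, ENSG00000156261.13, chromosome 21, 29056326 to 29073648) was the fourth subunit whose groups did not overlap. It was measured at 531 and 529 CPM in T4A and at 489 and 499.9 CPM in WT, and its log2 fold change of 0.0995 ± 0.037 missed the threshold (edgeR adjusted p = 0.0555). It passed under 6 of 13 alternatives, among them DESeq2 (adjusted p = 0.0203) and limma-voom (0.0174). Non-overlapping groups with T4A higher were seen for 4 of the 8 subunits and for 28.4% of all genes. Each subunit had at least 3492 counts per library, whereas all genes include many with far fewer, so the shares do not compare directly.

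The remaining 4 subunits overlapped between the groups. TCP1 (α subunit, ENSG00000120438.12, chromosome 6, 159778498 to 159789602), after which the complex was first named, stood at 481 and 475 CPM in T4A and at 472 and 480.5 CPM in WT. CCT6A (ζ subunit, ENSG00000146731.11, chromosome 7, 56051765 to 56063989) stood at 299 and 290.3 CPM in T4A and at 300.1 and 288.5 CPM in WT. For both genes the libraries of the groups interleaved. Their log2 fold changes were 0.0047 (95% interval −0.073 to 0.083) and 0.0011 (−0.089 to 0.091), so a change as large as that of CCT7 lay outside both intervals. CCT2 (β subunit, ENSG00000166226.13, chromosome 12, 69585459 to 69601570) was measured at 185.4 and 185.6 CPM in T4A and at 186.0 and 176.5 CPM in WT, with a log2 fold change of 0.034 (−0.0697 to 0.14). WT replicate 2 was the low library there. CCT5 (ε subunit, ENSG00000150753.12, chromosome 5, 10249921 to 10266412), the gene of an inherited sensory neuropathy, was the 1 subunit with a negative log2 fold change. It stood at 516 and 523 CPM in T4A and at 541 and 515 CPM in WT, and its log2 fold change was −0.0245 (−0.10 to 0.055, edgeR adjusted p = 0.721).

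**Figure D1:**
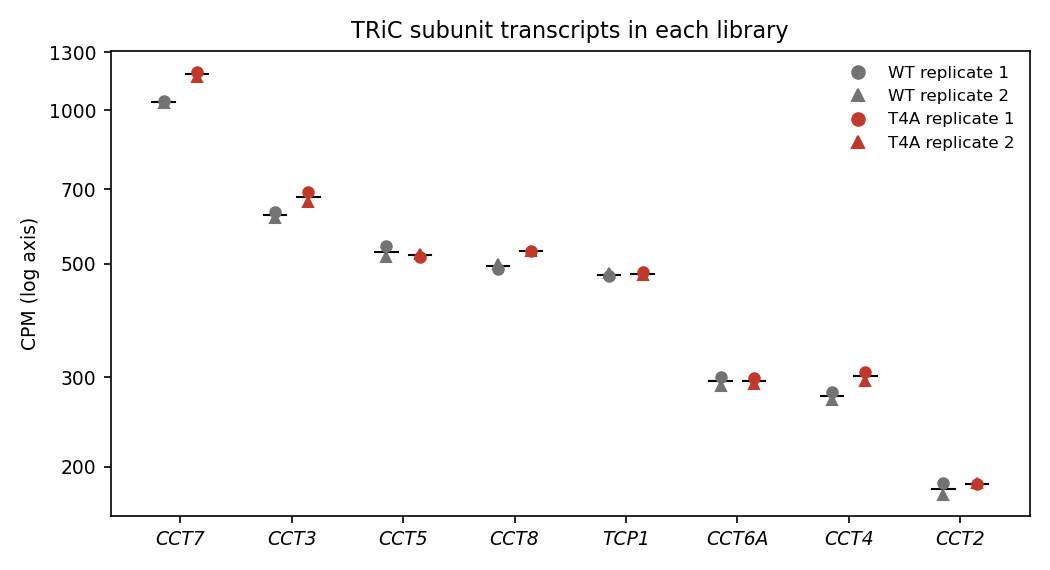
Level of each TRiC subunit in the 4 libraries, in CPM with TMM-scaled library sizes, with points for libraries and bars for the group means. T4A and WT points are apart for CCT3, CCT4, CCT7 and CCT8 and overlap for TCP1, CCT2, CCT5 and CCT6A.

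**Figure D2:**
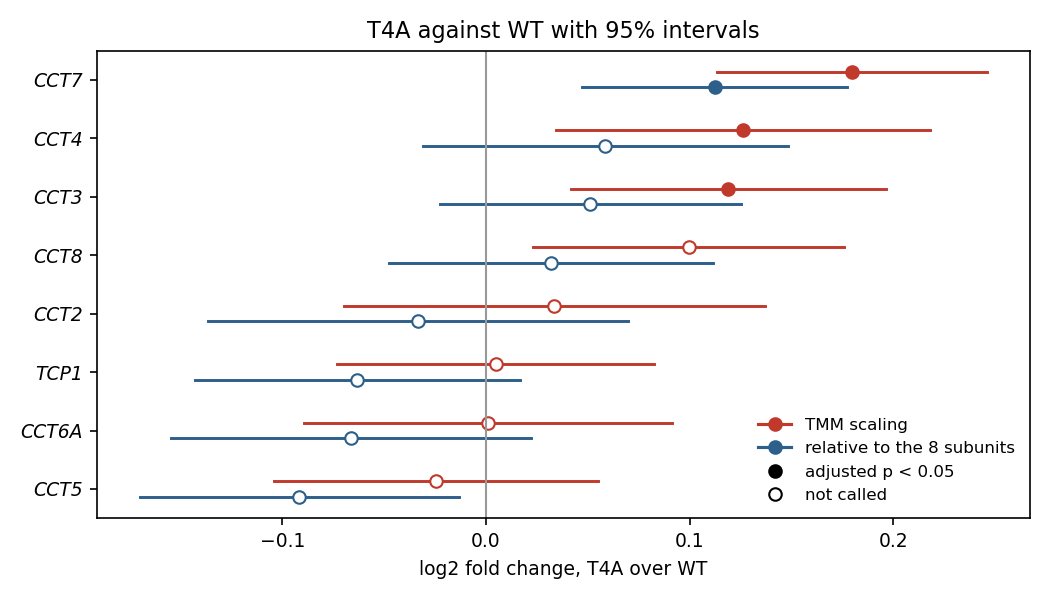
Log2 fold change of T4A over WT for each subunit, with its 95% interval, from edgeR. Red shows TMM scaling, and blue shows scaling to the geometric mean of the 8 subunit counts. Filled symbols mark an adjusted p under 0.05. With TMM scaling CCT7 is the highest at 0.18 and CCT5 the lowest at −0.0245.

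The transcripts of the complex as a whole kept nearly the same share of the raw counts. The 8 genes summed to 95334 and 77476 counts in T4A and to 132246 and 99351 counts in WT, which was 0.406% and 0.402% of the libraries in T4A and 0.400% and 0.402% in WT. The second replicates of both groups had the same share to the third decimal. After TMM scaling the sums were 4201 and 4119 CPM in T4A and 3943 and 3879 CPM in WT, and both T4A sums then lay above both WT sums. The TMM factors were 0.969 and 0.978 for T4A and 1.02 and 1.04 for WT. An exact permutation test of 2 libraries against 2 cannot give a two-sided p under 0.333, so none is given for the totals.

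The balance among the subunits was then examined by scaling each library to the geometric mean of the 8 subunit counts, CCT7 included, and testing all genes on that scale. By construction the 8 changes then centre near 0, and the scale differed from TMM by 0.0675 (log2). CCT7 alone was called, higher relative to the complex by 8.08% (log2 fold change 0.11 ± 0.031, edgeR adjusted p = 0.0122), beside 7.75% of all genes called higher on this scale. No subunit was called lower, beside 15.8% of all genes. The largest negative value was that of CCT5, at −0.092 (95% interval −0.17 to −0.013, edgeR adjusted p = 0.0885). The call of CCT7 was lost without T4A replicate 1, where the log2 fold change was 0.11 and the adjusted p 0.0743.

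Levels of different subunits were compared per kilobase of exon, since longer transcripts collect more counts. On this scale CCT7 was highest, at 328.0 ± 5.32 CPM per kilobase in T4A and 289.6 ± 1.60 in WT (SD, n = 2). CCT3 followed with 175 ± 5.89 and 161 ± 3.23, and CCT8 with 159 ± 0.364 and 148 ± 2.21. CCT2 was lowest, at 43.9 ± 0.037 and 42.8 ± 1.59. Per kilobase, CCT7 exceeded CCT2 by 7.12 times over all 4 libraries. Although the proteins enter the ring in equal number, the transcript levels were unequal per length. The order CCT7, CCT3, CCT8, CCT4, TCP1, CCT5, CCT6A, CCT2 was the same in each library. Among neighbours in that order, only CCT3 and CCT8 overlapped in their ranges. The order in the middle depended on the length used. With the length of the longest transcript CCT4 moved to the sixth place, and with only the exonic bases that no other gene shares CCT5 took the fourth on the mean over libraries, whereas CCT7, CCT3 and CCT8 stayed at the top and CCT2 at the bottom. All subunits were abundant, between the 94.3rd and the 99.2nd percentile of the per-length levels of protein-coding genes.

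Expressed as a share of the summed per-length level, CCT7 took 30.3% in both T4A libraries, against 28.5% and 28.8% in WT. The shares of TCP1 (9.04% ± 0.05 in T4A and 9.65% ± 0.22 in WT), CCT5 (8.50% ± 0.21 and 9.26% ± 0.22) and CCT6A (7.07% ± 0.037 and 7.57% ± 0.13) were lower in T4A. So was that of CCT2 (4.05% ± 0.065 and 4.235% ± 0.11). Those of CCT3 (16.15% and 15.93%), CCT4 (10.28% and 10.09%) and CCT8 (14.64% in both) were not. Shares sum to a whole, so a higher share of one subunit lowers the others, and no test was made on them.

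**Figure D3:**
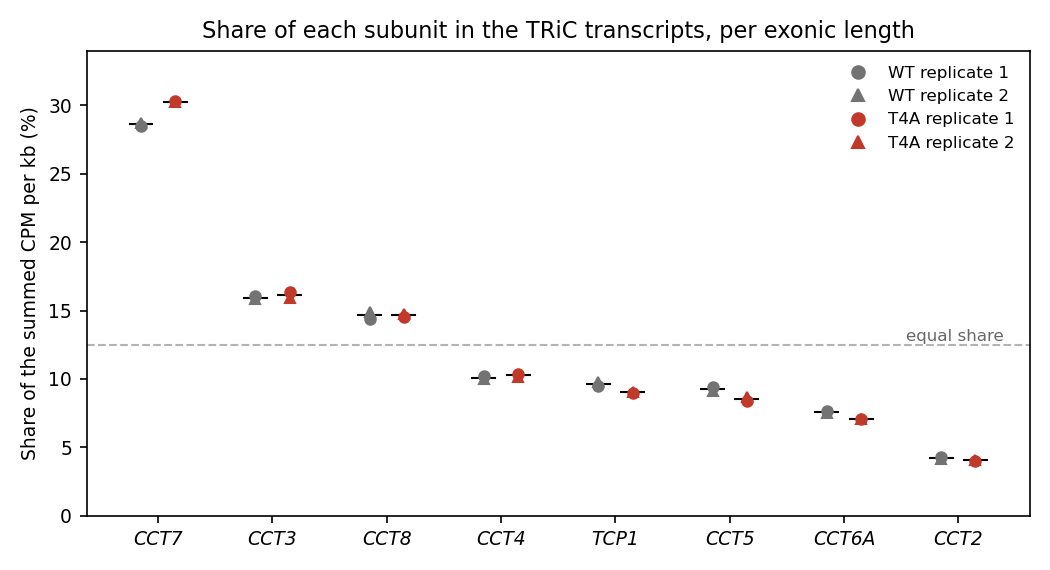
Share of each subunit in the summed per-length level of the 8 subunits, in percent, per library; the dashed line marks equal shares. CCT7 lies far above the line, at 30.3% in T4A, and CCT2 far below it, at 4.05%.

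The subunit genes lie on 7 chromosomes, and the bases upstream of their starts are shown for CCT7, CCT3 and CCT4, which were called, and for TCP1, which was not and shares its start region with a gene that was called. The sequences are from RefSeq (GRCh38.p14), 5′ to 3′ on the strand of the gene, up to 250 bases before the start and ending where a gene on the other strand starts. Capitals mark a CCAAT box (CCAAT) or a GC box (GGGCGG) on either strand. The intervals are chr2:73234058-73234307, plus strand, for CCT7, chr1:156338293-156338525, minus strand, for CCT3, chr2:61888672-61888724, minus strand, for CCT4 and chr6:159789603-159789811, minus strand, for TCP1.
CCT7: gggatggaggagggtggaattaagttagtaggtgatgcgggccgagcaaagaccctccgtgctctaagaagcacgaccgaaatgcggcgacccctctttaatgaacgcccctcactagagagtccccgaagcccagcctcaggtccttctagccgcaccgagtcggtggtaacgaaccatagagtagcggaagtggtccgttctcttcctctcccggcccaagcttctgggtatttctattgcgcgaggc
CCT3: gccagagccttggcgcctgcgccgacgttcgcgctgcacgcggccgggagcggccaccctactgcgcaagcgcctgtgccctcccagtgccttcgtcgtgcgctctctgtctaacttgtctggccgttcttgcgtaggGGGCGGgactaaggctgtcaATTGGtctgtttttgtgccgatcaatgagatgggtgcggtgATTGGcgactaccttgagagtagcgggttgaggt
CCT4: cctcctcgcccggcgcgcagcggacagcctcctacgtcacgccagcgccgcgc
TCP1: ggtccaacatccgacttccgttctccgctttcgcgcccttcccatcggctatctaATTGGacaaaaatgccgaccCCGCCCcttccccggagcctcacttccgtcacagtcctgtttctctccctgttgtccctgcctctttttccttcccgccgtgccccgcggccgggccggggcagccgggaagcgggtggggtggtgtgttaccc

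A CCAAT box was present in 4 of the 6 subunit promoters searched (TCP1, CCT2, CCT3 and CCT8), against 32.0% of 35116 promoters in the table, and a GC box in the same 4, against 42.6%. The ETS core CCGGAA was found in CCT2 alone, against 14.5%, and the pair of heat shock half-sites GAANNTTC or TTCNNGAA in TCP1 alone, against 11.6%. Neither the E-box CACGTG (6.34% of promoters) nor the TATA box TATAAA (10.7%) was found in any of the 6. All 250 bases before each start were searched on both strands, past the start of a neighbour too, and a TTCNNGAA match can hold the ETS core. CCT7 and CCT4 held no match, although for CCT4 the printed interval was cut to 53 bases by the start of COMMD1. The CCT5 entry lies at an inner start and CCT6A has none, so both were left out.

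Several subunit genes share their start region with a gene on the other strand. Whether a neighbour and its subunit differ in response was not tested. MRPL18, a protein of the mitochondrial ribosome, starts 209 bases from TCP1 and rose (log2 fold change 0.42 ± 0.12, edgeR adjusted p = 0.0134), beside a TCP1 value of 0.0047. PSPH, which makes serine, starts 320 bases from CCT6A and rose by 21.2% (adjusted p = 0.0336), beside a CCT6A value of 0.0011. COMMD1 beside CCT4 (0.50, adjusted p = 0.0565) and ATPSCKMT beside CCT5 (−0.10, adjusted p = 0.732) did not pass the test. Nor did PRADC1 (0.24, adjusted p = 0.264), whose start lies farther off, 1023 bases from that of CCT7. ACAT2, which overlaps TCP1, had 0.080 (adjusted p = 0.455). TSACC had 0.97 ± 0.54 from 15 to 38 counts (adjusted p = 0.225). TSACC overlaps CCT3, and its RefSeq start ends the CCT3 interval printed above. The snoRNAs and antisense RNAs inside the subunit genes had 0 to 9 counts. Reads were not assigned by strand, and 30.8% of the exonic bases of CCT5, 16.9% of those of CCT4 and 12.4% of those of TCP1 lie in exons of another gene.

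Copies of the subunits carried few counts. Of the 16 annotated copies in the table, 3 had a mean of at least 10 counts: the pseudogene CCT8P1, with 0.884% of the CCT8 count, the testis paralog CCT6B, with 0.360% of the CCT6A count, and the pseudogene CCT6P1, with 0.246%. The longest run of bases identical to the subunit was 128 in CCT8P1, 80 in CCT6P1 and 29 in CCT6B, whereas between any pair of subunits it was 11 to 17 bases.

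Exonic length, the union of all exons of a gene, varied with the response. Across the 8 subunits the log2 fold change fell with exonic length (Spearman rho = −0.71, n = 8 genes) and rose with GC content (0.45), and the same signs held across all genes (−0.35 over 18047 genes and 0.26). Genes share the libraries and are not independent, so no p is given. With the length trend of all genes removed, CCT7 was still higher (log2 fold change 0.11, adjusted p = 0.0237), CCT3 stood at 0.071 (adjusted p = 0.228) and CCT4 at −0.0202 (adjusted p = 0.824). This removal used the union of exons, by which CCT4 was the shortest subunit (2701 bases). By the longest transcript CCT8 was the shortest (1927 bases), with CCT4 at 2376 bases. The part of length in the subunit differences was not tested further.

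**Figure D4:**
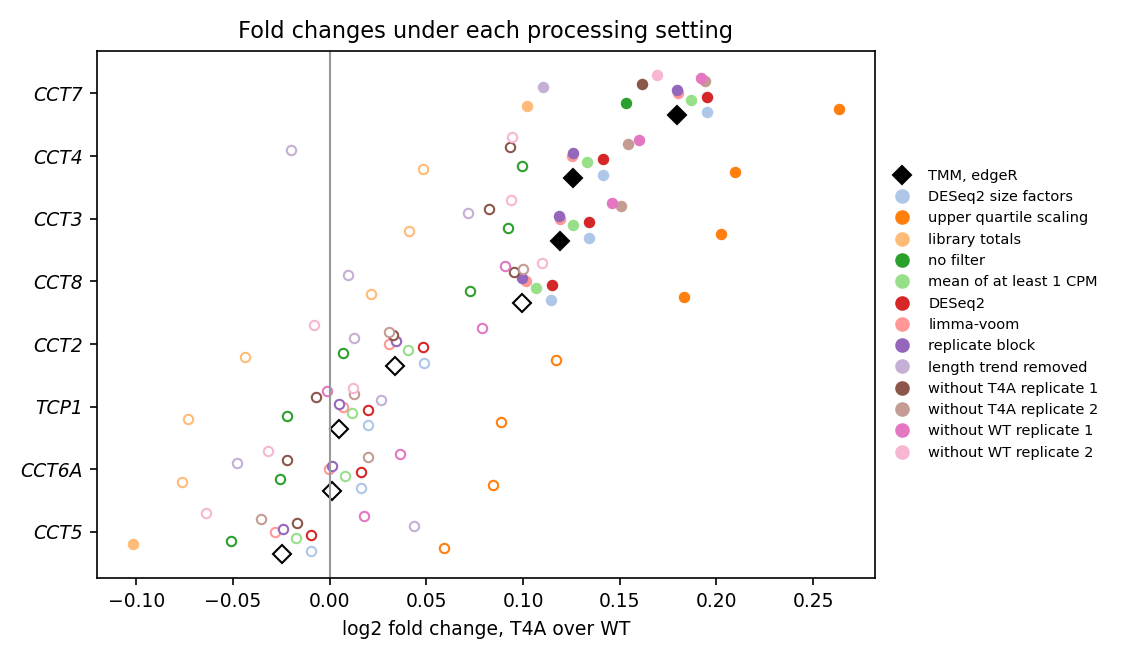
Log2 fold change of each subunit under the alternative scalings, filters, tools and left-out libraries, with filled symbols for an adjusted p under 0.05 and a diamond for the TMM-scaled edgeR result. CCT7 is filled throughout, between 0.10 and 0.26, while the others cross the threshold or stay below it.

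Genes that work around TRiC were counted in the same fit, in which 10.7% of all genes were called higher and 13% lower. Prefoldin subunits hand unfolded chains to the chaperonin. Of these and the prefoldin-like proteins, 3 of 7 tested rose and none fell, with a median of 0.28. These were PFDN2 (79.9 ± 5.07 CPM in T4A against 61.7 ± 1.91 in WT, adjusted p = 0.000666), PDRG1 (15.7 ± 1.26 against 9.99 ± 0.211, adjusted p = 0.00176) and UXT (29.9 ± 4.77 against 23.5 ± 2.10, adjusted p = 0.0302). PDRG1 and UXT are prefoldin-like, and PFDN2 was the only called subunit of prefoldin itself. PFDN4 had a log2 fold change of 0.28 and did not pass. PFDN5 and PFDN6 had at most 9 counts and were not tested. Of their exonic bases 37.4% and 24.5% lie in exons of other genes, and how fragments from shared or repeated sequence were counted is not known, so these counts cannot be read as low expression. Of the phosducin-like and thioredoxin-like cofactors, 1 of 3 fell and none rose, with a median of −0.11. PDCL, which assists the folding of G protein β subunits, was at 5.61 ± 1.08 CPM in T4A and 9.21 ± 1.39 in WT (adjusted p = 0.0135), while PDCL3 (0.079) and TXNDC9 (−0.11) did not pass.

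The clients followed no single direction. Of the actins and tubulins, 5 of 13 tested rose and 1 fell, with a median of 0.16. The abundant α-tubulin TUBA1B rose from 925 ± 11.2 CPM in WT to 1013 ± 44.8 CPM in T4A (adjusted p = 0.00927), and TUBB4B, TUBA4A and TUBB2B rose by 0.33, 0.62 and 0.38 on the log2 scale. TUBB4A, a β-tubulin of neurons and glia, fell by 0.32 (adjusted p = 0.0118). The cytoplasmic actins, named here after their values were seen, had log2 fold changes of 0.047 (ACTB, adjusted p = 0.259) and 0.072 (ACTG1, adjusted p = 0.0637). TUBB and TUBB3 had at most 11 counts and were not tested, and the same doubt holds for them, with 13.5% and 21.3% of their exonic bases shared. Of the tubulin folding cofactors, which take tubulin over from TRiC, 3 of 6 rose and none fell, with a median of 0.22. Among them TBCE had only 3 to 21 counts and a log2 fold change of −0.38 ± 0.90 (SE). The same doubt holds for TBCE, with 39.25% of its exonic bases shared, although it was tested and enters the median. TBCA, which holds β-tubulin, rose from 266 ± 14.5 to 365 ± 12.1 CPM (adjusted p = 4.21e-07), ARL2 by 0.48 and TBCB by 0.23 on the log2 scale, and TBCC had 0.21 without passing. Of 15 other clients, 3 rose and 2 fell, with a median of 0.083. GNB2, a G protein β subunit (adjusted p = 1.15e-05), MLST8 of the mTOR complexes (0.36) and CDC20, an activator of the anaphase-promoting complex named here after its value was seen (0.27), rose, and GNB4 (−0.51) and the transcription factor STAT3 (−0.38) fell.

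Of the relatives of TRiC, 1 of 6 tested rose and 1 fell, with a median of 0.24. HSPE1, the mitochondrial co-chaperonin, rose from 99.1 ± 0.738 CPM in WT to 132 ± 8.56 in T4A (adjusted p = 2.98e-05), whereas its partner HSPD1, the mitochondrial chaperonin itself, also named after its values were seen, had 1695 ± 15.1 CPM in T4A and 1680 ± 48.1 CPM in WT (adjusted p = 0.831). BBS10, a chaperonin-like protein needed for the BBSome, fell by 0.61 (adjusted p = 0.0273), and MKKS (0.27) and CCT6B (0.45) did not pass. Of all genes tested, 10.7% were called higher and 13% lower. In the 6 lists, with 7, 3, 13, 6, 15 and 6 genes tested, 15 genes rose and 5 fell. Upper quartile scaling gave 26 and 3, and 3, 3 and 2 fell without T4A replicate 1, WT replicate 1 and WT replicate 2. With the length trend of all genes removed, 13 rose and 4 fell. The lists differed in median exonic length, from 1948 bases (prefoldin and prefoldin-like) to 6009 (other clients), against 4481 over all genes tested. The part of length in the lists was not tested further. No list was compared with the others or with random genes.

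**Figure D5:**
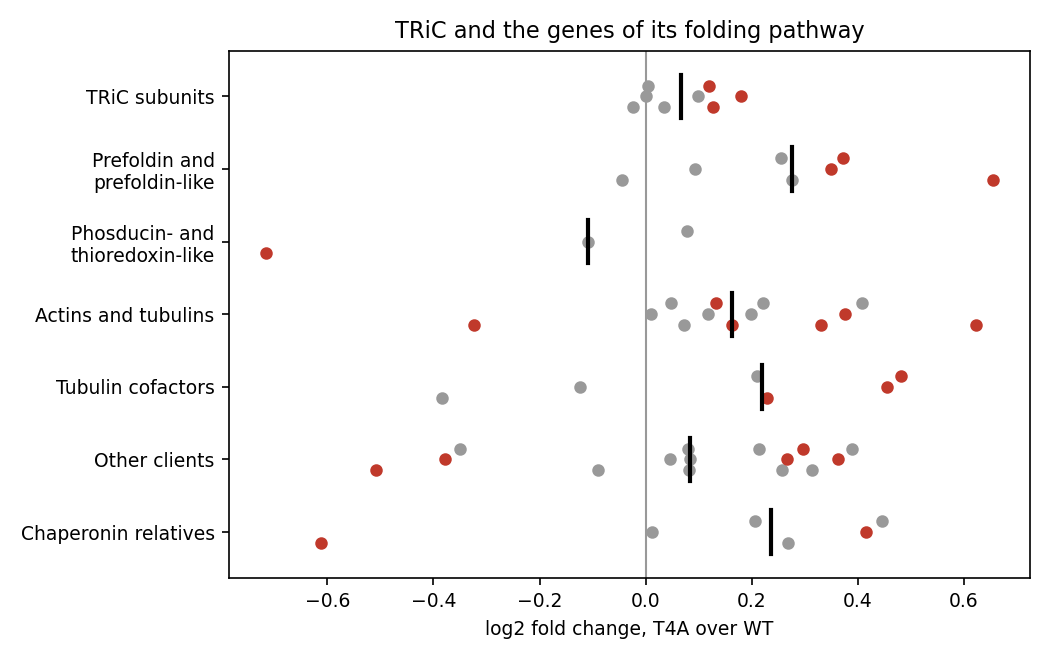
Log2 fold change of T4A over WT for each tested gene of the TRiC subunits and of the prefoldin, cofactor, client and relative lists, with called genes marked. The TRiC subunits form the narrowest list, from −0.0245 to 0.18, and each had at least 3492 counts per library. Other lists hold genes with far fewer counts and larger errors, so the widths do not compare directly.

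The genes whose levels moved most like the mean of the subunits over the 4 libraries were PDIA3 and HSP90B1, both chaperones of the endoplasmic reticulum, CES3, RAC1 and TPMT, at distances of 0.0139 to 0.0191 in log2 CPM among the 7088 coding genes that reached 10 CPM on average. Within a distance of 0.05 there were 114 genes. Of the subunits themselves, only CCT2 was that near to their mean.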

How the data were processed

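Poly(A) RNA of HEK293T cells was sequenced in 2 T4A and 2 WT libraries. The submitters' processing notes name Trimmomatic 0.38, HISAT2 2.2.1, featureCounts 2.0.1 and build hg38. The authors deposited unnormalized fragment counts, 1 value per gene and library. The treatment of fragments that overlap several genes or map more than once is not given in the sources available. Total counts per library ran from 19257217 to 33063535, so depth differs between libraries and intervals are widest for low genes.

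Names and exonic lengths came from GENCODE release 44, with 60877 of 62700 identifiers matched, and coordinates and promoters from RefSeq GRCh38.p14. Genes were filtered with filterByExpr and T4A was tested against WT, after TMM scaling, in edgeR 4.0.16 under R 4.3.3 by the quasi-likelihood functions glmQLFit and glmQLFTest, and p-values were adjusted by Benjamini-Hochberg across the 18139 genes. All p-values are two-sided. CPM use TMM-scaled library sizes. DESeq2 1.42.0 and limma 3.58.1 served as alternatives, as did other scalings, filters, a length correction, a replicate block and leaving out each library. The scripts were tested on simulated data with less spread between libraries and larger fold changes than those of the subunits. That test does not check calls as small as those of the subunits. The subunits, lists and tests were chosen with earlier results of these data known. Named were the 8 subunits, POLR2A, neighbours and copies of the subunits, from each list up to 4 genes with the smallest p and those called against the list's direction, and the 5 nearest profiles; ACTB, ACTG1, CDC20 and HSPD1 were named outside this rule. The level per unshared exonic base was added after seeing the data. Replicates differed by more than sampling noise (chi-square per degree of freedom 4.56 in T4A and 5.66 in WT). The paper calls the duplicates biological replicates. Neither it nor the labels say whether they were separate cultures or transfections, and the p-values rest on the spread between these libraries. For each gene edgeR drew that spread toward the spread of all genes (prior degrees of freedom 16.98). The p-values and intervals therefore do not reflect the replicates of that gene alone.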

Additional observations from a re-analysis of the deposited data

How the results depend on the processing

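CCT7 was called higher under all 13 alternatives to the TMM-scaled edgeR test, with log2 fold changes of 0.10 to 0.26 and adjusted p-values of 5.37e-07 to 0.0237. CCT3 and CCT4 were called under 8 of 13 each, CCT8 under 6, CCT5 (lower, library totals, adjusted p = 0.0499) under 1, and TCP1, CCT2 and CCT6A under none. The number of subunits called higher was 3, and 4 with DESeq2 size factors, upper quartile scaling, a mean of at least 1 CPM, DESeq2, limma-voom and the replicate block, and 1 with library totals, with no filter and with the length trend removed, where CCT4 turned to −0.0202. With library totals 1 was called lower, against 0. The median log2 fold change of the subunits, 0.067, became 0.15 with upper quartile scaling, −0.011 with library totals, 0.0398 with no filter and 0.0195 with the length trend removed. Leaving out each library in turn gave 1 to 3 subunits higher, 1377 to 1975 genes higher and 1583 to 2545 lower over all genes, and 12 to 15 list members higher and 2 to 5 lower. Relative to the complex mean, these gave 0 to 1 subunits higher, and 1 subunit (CCT5) was called lower when the sum of the 8 replaced their geometric mean (adjusted p = 0.0343). Upper quartile scaling called 26 list members higher and 3 lower, against 15 and 5, and the length trend lowered the genes called lower from 2351 to 1432. Of the called genes, 45.15% were higher, 61.0% with upper quartile scaling, 31.2% with library totals and 55.7% with the length trend removed. The cause of these differences was not tested. The labels give both groups replicate numbers but no shared batch, and deviations of same-numbered libraries did not correlate (−0.0038). The replicate block gave 2012 genes higher and 2432 lower, added CCT8 (adjusted p = 0.0294) to the subunits called higher and CCT5 (relative log2 fold change −0.0916, adjusted p = 0.0405) to those called lower relative to the complex mean. With 2 libraries per group, leaving 1 out assumes that the lone library varies like the others, and differences under about 0.066 to 0.10 (log2) lay within the intervals of these genes.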
